A study of Drosophila melanogaster with 2 samples.

Results

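The Polycomb group genes described here are 10 genes taken by name from the 13968 protein-coding genes of the Ensembl BDGP6.54 annotation: ph-p, ph-d, Pc, Psc, Su(z)2 and Sce, which encode Polycomb repressive complex PRC1 and its close relatives, E(z), esc and Su(z)12, which encode PRC2, and pho, which encodes a DNA-binding recruiter. Their peaks were read from a ChIP-seq map of Sequoia, a zinc finger protein encoded by seq and known for its part in axon and dendrite growth. The map came from whole Drosophila melanogaster embryos of 0 to 24 h of the strain seq-GFP, which carries a transgenic seq-eGFP fusion, and an antibody against GFP was used for the precipitation. The labels give 1 group with 2 biological replicates and no second genotype, age or treatment, so no condition could be compared. Both libraries mix all tissues and ages of the embryo, and binding in few cells cannot be told apart from weak binding in many.

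PRC2 methylates lysine 27 of histone H3 through the catalytic subunit E(z), with esc and Su(z)12 as its partners. PRC1 reads that mark through the chromodomain of Pc and ubiquitinates histone H2A through the RING protein Sce, with Psc or Su(z)2 as partner, while the SAM domain proteins encoded by ph-p and ph-d join complexes to each other. Pho binds a DNA word with the core GCCAT within Polycomb response elements, the stretches of DNA from which the complexes hold Hox and many other developmental genes silent. Several of these genes are themselves known to lie under Polycomb control in flies, and ph-p with ph-d, like Psc with Su(z)2, are pairs of neighbouring, related genes.

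Sequoia peaks were found at or within 5 kb of 7 of the 10 genes, beside 39.9% of all protein-coding genes. The 10 genes have a median length of 8360 bp, against 2164.5 bp for all protein-coding genes. The ph-p and ph-d pair, on the X chromosome and both read from the minus strand, held 10 of the 19 peaks within 5 kb of any of the 10 genes. The sequences below reach 50 bases to either side of 5 summits of this pair, from the Drosophila Release 6 genome and written on the genes' own strand. They are shown because the first was the strongest promoter peak of the 10 genes and the second is an AT-rich intron peak of ph-p. The last 3 are the peaks of the short interval between the genes, among them the pair at which the libraries differed most. Windows with bases of an untranslated region (UTR), such as that of the other ph-p promoter peak, were not printed. Apart from the first and the ph-d promoter sequence, they were chosen after their values were seen. Capitals mark GAGAG, the word of the GAGA factor and Pipsqueak; GCCAT, sought likewise on both strands, is in none of these 5.
ph-p promoter peak, chrX:2137275-2137375: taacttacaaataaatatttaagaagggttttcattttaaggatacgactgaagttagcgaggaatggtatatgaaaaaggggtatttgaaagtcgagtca
ph-p intron peak, chrX:2135346-2135446: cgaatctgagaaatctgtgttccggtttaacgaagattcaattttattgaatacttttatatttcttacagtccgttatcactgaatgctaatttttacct
ph-d promoter peak, chrX:2123464-2123564: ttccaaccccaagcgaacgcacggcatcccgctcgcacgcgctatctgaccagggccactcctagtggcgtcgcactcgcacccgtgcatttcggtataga
ph-d near upstream peak, chrX:2124045-2124145: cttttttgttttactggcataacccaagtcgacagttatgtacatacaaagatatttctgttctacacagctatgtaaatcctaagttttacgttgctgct
ph-d far upstream peak, chrX:2125682-2125782: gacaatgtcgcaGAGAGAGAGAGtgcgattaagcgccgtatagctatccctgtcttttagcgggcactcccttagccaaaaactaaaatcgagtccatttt

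The peaks come from 4 lists that the authors deposited: a conservative list of 4099 peaks on the 7 chromosome arms, which is the main one here, a list from pooled replicates (5286 peaks), and 1 list for each replicate (4069 for replicate 1 and 2675 for replicate 2). The signal of a peak is a value of the authors' peak caller, and it ranks peaks within a list only. Its median was 117.1 in the conservative list, 101.2 in the pooled list, 69.5 in replicate 1 and 69.6 in replicate 2. Read depth is unknown, so no counting error can be given for a signal. The values of the 2 replicates are given beside it to describe how they differ, and they are not an error of the signal. A peak was counted as a promoter peak when the summit fell within 500 bp of any annotated transcription start site (TSS) of the gene, and as a nearby peak when it fell at a TSS, in the gene or within 5 kb of either end.

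In the conservative list, ph-p, ph-d, Psc, Su(z)2, E(z) and Su(z)12 had a promoter peak, which makes 6 of 10 genes where 13.8% of all protein-coding genes had one. Pc had a nearby peak only, and Sce, esc and pho had neither. Counted within 5 kb, 7 of 10 genes had a peak, beside 39.9% of all protein-coding genes. The pooled list gave the same counts of 6 and 7, where the shares over all genes were 17.3% and 46.3%. In the list of replicate 1, 7 genes had a promoter peak, Pc being added, and 7 had a nearby peak (14.3% and 39.8% of all genes). In the list of replicate 2, ph-p, ph-d, Psc and E(z) made 4 genes with a promoter peak and 6 had a nearby peak (10.1% and 31.2% of all genes), Su(z)12 being without any. The 10 genes are long, with a median of 8360 bp against 2164.5 bp for all protein-coding genes, and had a median of 1.5 TSSs against 1. Longer genes offer more room for a nearby peak, and the part of length in these counts was not tested. The genes were also chosen with earlier results of these data known, so the counts beside the shares are a description only.

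By complex, 4 of the 6 PRC1 genes and 2 of the 3 PRC2 genes had a promoter peak in the conservative list, and pho had none. The pooled list gave the same 4 and 2, replicate 1 gave 5 and 2, and replicate 2 gave 3 and 1. Nearby peaks were listed for 5 of the 6 PRC1 genes in each of the 4 lists, beside 31.2% to 46.3% of all protein-coding genes. With groups of 6, 3 and 1 genes, of which 4 lie in 2 adjacent pairs, the complexes were not tested against each other. Of the 19 distinct peaks, 17 lay near PRC1 genes, 10 of them at ph-p and ph-d and 6 at Psc and Su(z)2, and 2 lay near PRC2 genes. The 19 peaks had signals from 81.7 to 1004 with a median of 176.0. Of them, 3 ranked among the 100 strongest of the 4099 peaks of the list. Of the same 19, 5 lay within 500 bp of a TSS of a gene outside the 10, so that a peak near a Polycomb group gene need not belong to it. Over the whole list, 1828 of 4099 peaks lay within 500 bp of a TSS of some gene. Over the genes with a promoter peak, the median of the strongest promoter signal was 161.1 for the 6 Polycomb group genes and 141.2 for all 1925 genes.

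**Figure D1:**
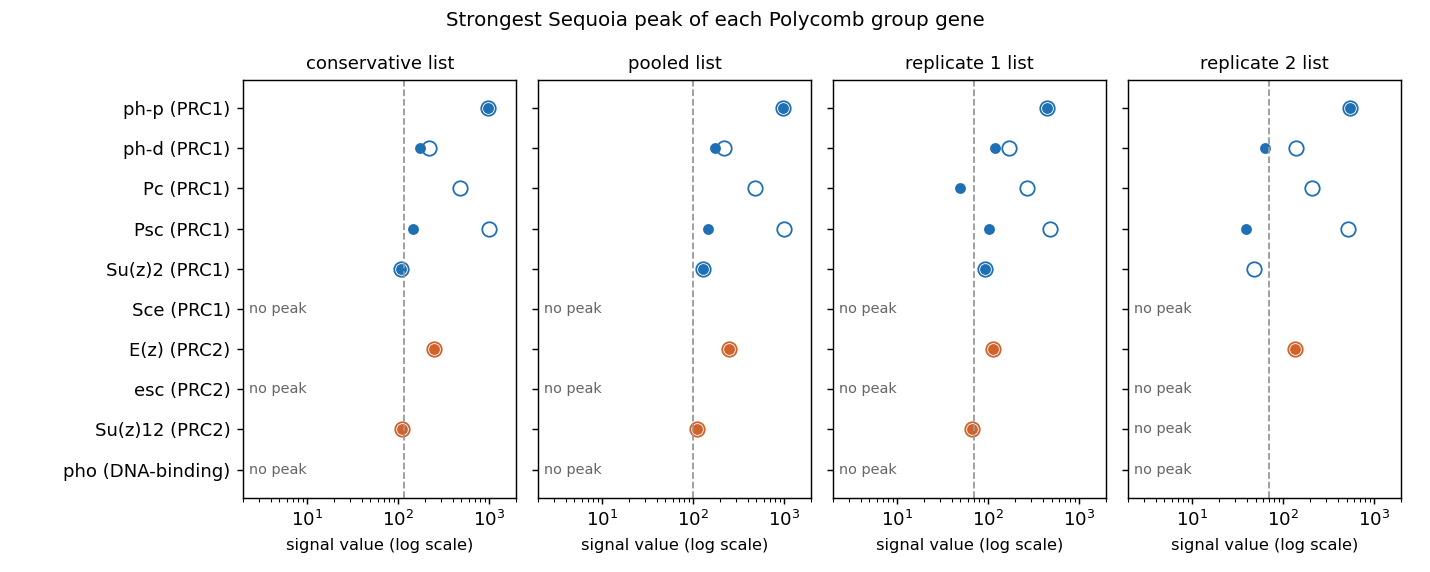
Strongest peak of each of the 10 genes in the 4 deposited lists. The x axis is the authors' signal value on a log scale, filled points are promoter peaks, open circles the strongest peak at a TSS, in the gene or within 5 kb, and the dashed line is the median of all peaks of that list (117.1, 101.2, 69.5 and 69.6). Sce, esc and pho have no peak in any list, and the Psc circle (1004 in the conservative list) lies far to the right of its promoter point (146.1).

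The ph-p gene (FBgn0004861, chrX:2126210-2138371) carried the strongest promoter peak of the 10 genes within the 500 bp window. Its promoter peaks lie near the edge of that window, and with a window of 200 bp neither ph-p nor ph-d has one. With the 5'-most TSS alone, the strongest of ph-p is 644.4. Its summit at chrX:2137325 lies in an intron, at -470 bp from the nearest ph-p TSS (negative offsets are upstream), and the peak spans chrX:2137173-2137519. This peak had a signal of 966.2 and rank 17 in the conservative list, with 444.2 in replicate 1 and 542.3 in replicate 2. Among the 1925 genes with a promoter peak, ph-p ranked 13 by its strongest one. A second promoter peak at chrX:2137921, at 450 bp inside the 5' UTR from the outermost TSS, had a signal of 644.4 and rank 61, with 289.5 in replicate 1 and 363.7 in replicate 2. Both peaks were among the 100 strongest of each replicate's own list, and both were higher in replicate 2. Of the 1925 genes with a promoter peak, 241 had 2 or more, which is 1.73% of all protein-coding genes. The ph-p gene has 3 annotated TSSs, against a median of 1 for all protein-coding genes.

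Around this pair the ph-p gene had further, weaker peaks. An intron peak at 1226 bp from the nearest TSS had a signal of 256.8, beside 116.7 in replicate 1 against 137.6 in replicate 2, and another at 1916 bp had 83.6 (67.1 and 38.6). Upstream, towards and into D2hgdh, a neighbouring gene on the other strand, peaks at -1523, -2336 and -3512 bp had signals of 87.0, 155.0 and 100.1, and the last lies at a TSS of D2hgdh. All 3 upstream peaks were higher in replicate 1, with 57.9, 111.1 and 62.6 there against 32.8, 44.9 and 36.5 in replicate 2. The thresholded list of replicate 2 held none of them, and that of replicate 1 lacked the one at -1523 bp. In all, ph-p had 10 peaks at a TSS, in the gene or within 5 kb, a number that 11 protein-coding genes (0.0788%) reached. Of these 10, 3 are also the nearby peaks of ph-d, since the flank on the 3' side of ph-p overlaps the promoter of ph-d. The ph-p gene is 12162 bp long, against a median of 2164.5 bp for all protein-coding genes.

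The ph-d gene (FBgn0004860, chrX:2115727-2123286) lies downstream of ph-p across a gap of 2923 bp, and its 3 nearby peaks were all in that gap. The promoter peak, with its summit at chrX:2123514 or -228 bp from the TSS, had a signal of 176.0 and rank 1047, with 121.1 in replicate 1 and 63.4 in replicate 2. The near upstream peak at -809 bp had a signal of 200.7 and rank 828, and it went the other way, with 66.4 in replicate 1 and 139.1 in replicate 2. The far upstream peak at -2446 bp, whose window holds the GAGA run printed above, had a signal of 220.3 and rank 675, with 171.0 in replicate 1 and 53.1 in replicate 2. Each of the 3 was in the list of each replicate, yet which library was higher alternated along the gap.

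The genes share sequence, and reads that match more than one place cannot be assigned to one of them. Of all 50-base words of the ph-d gene, 30.4% also occur in the ph-p gene, and 30.2% of those of ph-p occur more than once in the genome. At the peaks themselves, 28.4% of the words in the ph-d promoter peak (25 of 88) were repeated, and no word of the other 18 peaks was. The sources used here give neither the read length nor the treatment of repeated reads, and the part of shared sequence in the ph-d promoter value was not tested.

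**Figure D2:**
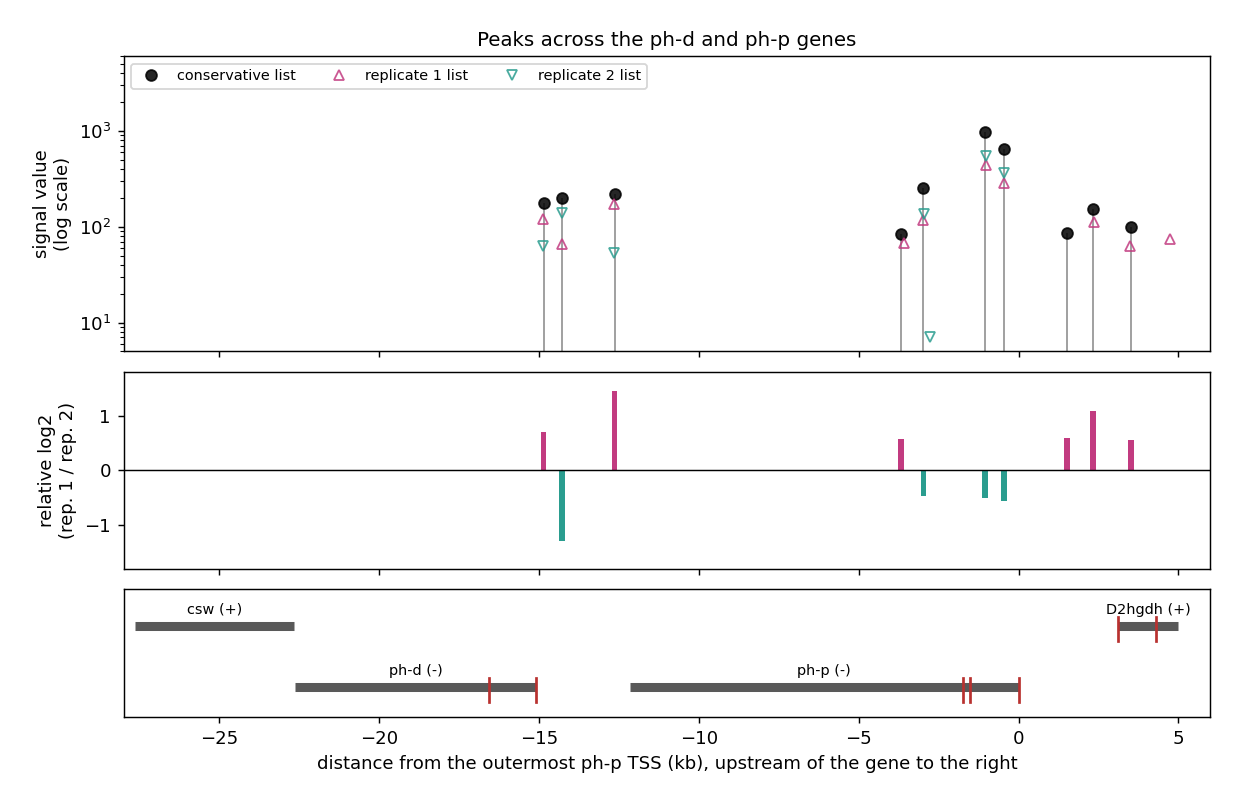
Peaks across ph-d and ph-p. The x axis is the distance in kb from the outermost ph-p TSS, with upstream of both genes to the right. The top panel gives signal on a log scale in 3 lists, the middle panel the log2 ratio of replicate 1 to replicate 2 relative to the median of promoter peaks (bars above 0 are higher in replicate 1), and the bottom panel the genes within the window with TSSs in red. The strongest pair of peaks (966.2 and 644.4) leans slightly to replicate 2, while the bars alternate between -1.29 and 1.46 in the gap between the genes.

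The Psc gene (FBgn0005624, chr2R:12965997-12980994, minus strand) and Su(z)2 (FBgn0265623, chr2R:12996501-13007911, plus strand) are read away from each other across 15506 bp. Their strongest peak was not at either promoter. It lay in the interval between them, at chr2R:12985049-12985369 with its summit at -4228 bp from the Psc TSS and within 500 bp of the TSS of the long noncoding RNA gene lncRNA:CR44339. With a signal of 1004 and rank 14 it was the strongest of the 19 peaks, and it had 477.8 in replicate 1 and 521.9 in replicate 2. The Psc promoter peak, in the 5' UTR at -139 bp from the inner of its TSSs, had 146.1 and rank 1458, with 102.9 in replicate 1 and 39.4 in replicate 2. A peak in a Psc intron at 5092 bp had 220.6 (107.3 and 111.2). The unscaled values of the intron and the intergenic peak were thus similar in both libraries, while that of the promoter was much lower in replicate 2. Relative to the median of promoter peaks, the log2 ratio of replicate 1 to replicate 2 was -0.28 at the intron peak. It was -0.35 at the intergenic peak and 1.16 at the promoter.

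At Su(z)2 the promoter peak was weak and depended on the list. The conservative list placed it in an intron at 173 bp with a signal of 107.7 and rank 2344, below the median of that list, and 81.5 in replicate 1 and 30.7 in replicate 2. The pooled list lacked that peak and held a stronger one at -95 bp. It reached 128.3, beside 91.9 in replicate 1 and 26.3 in replicate 2, and had an irreproducible discovery rate (IDR) of 0.0158, above the highest IDR in the conservative list, 0.00999. The IDR is the authors' estimate of the share of peaks ranked at least as well that would not recur between replicates. In the list of replicate 1 there were 3 promoter peaks of Su(z)2 and in that of replicate 2 none. Peaks at -4245 bp and downstream of the gene had signals of 82.3 and 81.7. Psc and Su(z)2 thus each had 3 nearby peaks, as ph-d did, a number that 907 protein-coding genes (6.49%) reached or passed.

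**Figure D3:**
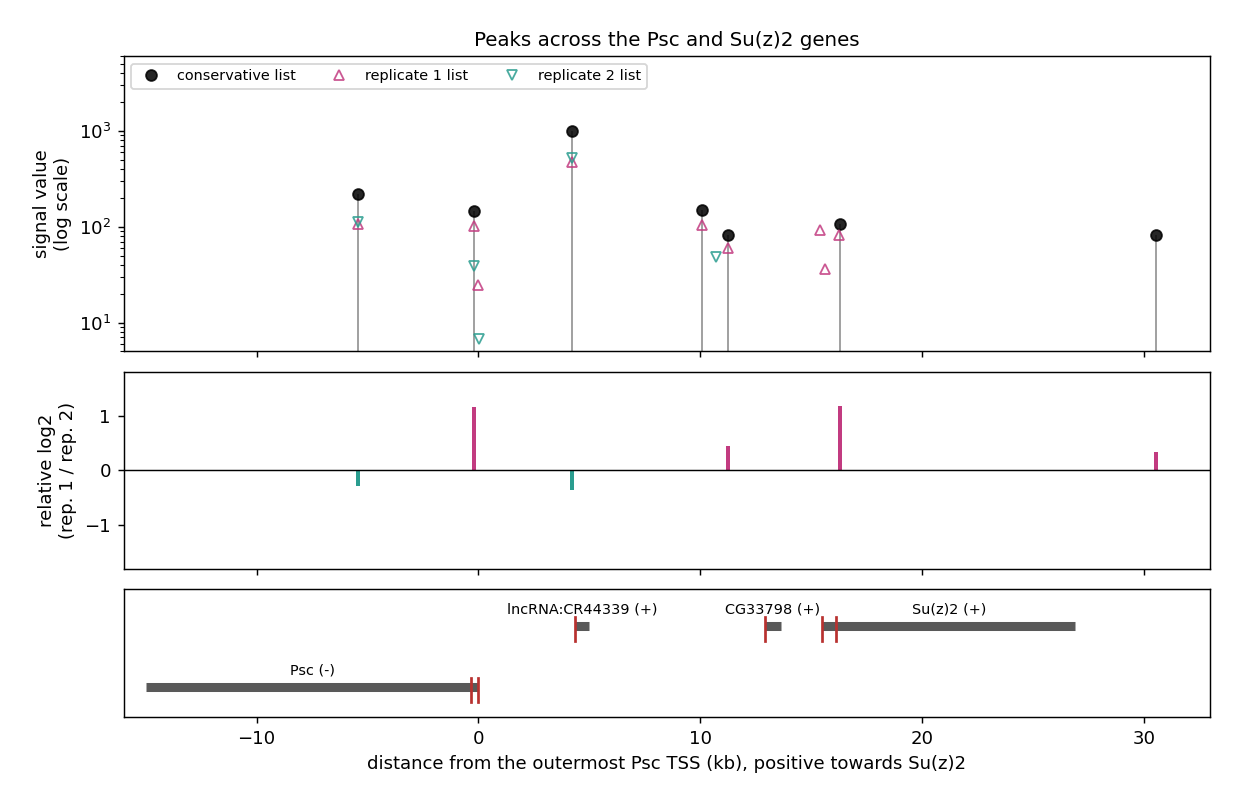
Peaks across Psc and Su(z)2. The x axis is the distance in kb from the outermost Psc TSS, positive towards Su(z)2. The panels are signal on a log scale in 3 lists, the relative log2 ratio of replicate 1 to replicate 2, and the genes with their TSSs in red. The peak with a signal of 1004 stands beside lncRNA:CR44339, and both promoters have ratios above 1.1. The conservative peak at 10.08 kb lies more than 5 kb from both genes and has no ratio bar.

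Pc and Sce, the chromodomain and the RING subunit, had no promoter peak in the conservative list. For Pc (FBgn0003042, chr3L:21306138-21318020), the single nearby peak at chr3L:21304570 lies beyond its 3' end, within 500 bp of the TSSs of CG7632 and CG11309. It had a signal of 479.4 and rank 135, with 268.4 in replicate 1 and 207.9 in replicate 2. The list of replicate 1 held a Pc promoter peak at 381 bp with a signal of 49.5, below that list's median. At the same place the conservative ranked list, which also holds peaks that fail the IDR threshold, had a peak of 64.2 with an IDR of 0.692, where replicate 2 had 8.53. Of the 50-base words of the Pc gene, 76.1% were repeated in the genome, more than in any other of the 10 genes. For Sce (FBgn0003330, chr3R:27680431-27682029) no ranked peak lay at the promoter, and the strongest within 5 kb had a signal of 57.6 with an IDR of 0.0824.

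Among PRC2 genes, E(z) (FBgn0000629, chr3L:10634575-10638130), the methyltransferase, had the strongest promoter peak. The summit at 70 bp lies in its 5' UTR. The signal was 250.2 with rank 528, beside 114.8 in replicate 1 and 134.5 in replicate 2. Su(z)12 (FBgn0020887, chr3L:19918242-19923462) had a promoter peak of 112.0 at 136 bp, also in the 5' UTR, with rank 2202, and with 66.8 in replicate 1 and 44.7 in replicate 2. Each of these peaks is shared with a neighbouring gene whose TSS lies within 500 bp, Cnep1r2 at E(z) and Pfdn6 at Su(z)12, so the data do not assign it to one of the pair. The WD40 protein gene esc (FBgn0000588, chr2L:11827204-11829405) had no peak in any of the 4 lists. Its strongest ranked peaks below the threshold were 29.7 at the promoter, with an IDR of 0.577, and 55.6 within 5 kb, with an IDR of 0.0521.

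The recruiter gene pho (FBgn0002521, chr4:1172469-1181628) had no ranked peak within 5 kb at all, even among the 119411 peaks of the conservative ranked list. This was true of 813 protein-coding genes (5.82%), of which 50 were on chromosome 4, where pho lies among 80 protein-coding genes. Chromosome 4 carried 12 conservative peaks, and 3 of its 80 genes (3.75%) had a promoter peak and 9 (11.25%) a nearby one. The lack of ranked peaks was thus shared by most genes of that chromosome. Repeated 50-base words made up 6.86% of the pho gene.

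Replicate ratios were taken as the log2 ratio of replicate 1 to replicate 2 signal minus the median over promoter peaks, which was 0.22. Over the 1820 promoter peaks with both values the ratio had an SD of 0.62, and its 5th and 95th percentiles were -0.87 and 1.10. The ratio of the strongest promoter peak was -0.51 at ph-p, -0.45 at E(z), 0.36 at Su(z)12, 0.71 at ph-d, 1.16 at Psc and 1.19 at Su(z)2. Psc and Su(z)2 thus lay beyond the 95th percentile, at 96.4 and 96.8, and the other 4 genes within the usual range. Of all 19 peaks, 12 had a positive ratio and 4 lay outside that range, the other 2 being the ph-d upstream peaks at -809 bp (-1.29, percentile 1.70) and at -2446 bp (1.46, percentile 99.1). By the centring of the ratio, as many promoter peaks lie above 0 as below it, and the percentiles leave a set share of them outside. Of the 19 peaks, 10 lie at ph-p and ph-d, so the peaks are not independent. The ph-d promoter and its near upstream peak are 581 bp apart and differed by 2.00 in the ratio. Among 523 pairs of neighbouring conservative peaks at most 1000 bp apart the median difference was 0.18, and 12 pairs (2.29%) differed by as much. The ph-d pair was picked after the values were seen, as the largest difference among such pairs at these genes. The 523 pairs were not matched to it by distance. Inside ph-p the 2 intron peaks differed by 1.04, which 74 pairs (14.1%) reached, while its 2 promoter peaks differed by 0.04. The ph-p upstream peaks at -1523 and -2336 bp differed by 0.49, which 172 pairs (32.9%) reached.

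Base composition moved with this ratio, a comparison made after the values were seen. Within 50 bp to either side of the summit, the conservative peaks had a median GC content of 35.6%. Of the 19 peaks, 9 were below that median, and 7 of these had a negative ratio, the exceptions being the Pc flank peak (24.8% GC, ratio 0.14) and the Su(z)12 promoter (33.7%, 0.36). All 10 peaks at or above the median had a positive ratio, from 0.33 to 1.46. Over the whole list, 1356 of 1965 peaks below the median had a negative ratio and 1376 of 2116 at or above it a positive one. In the ph-d gap, the promoter window was 62.4% GC with a ratio of 0.71. The near upstream window was 34.7% GC, close to the median of the list, with -1.29. The far upstream window was 46.5% GC with 1.46, the highest ratio in the gap but not the highest GC content. The ph-p promoter window (31.7%) and intron window (30.7%) had -0.51 and -0.46. The promoter windows of Psc (55.4%) and Su(z)2 (57.4%), the 2 highest promoter ratios, were GC-rich, and that of E(z) (26.7%) was not.

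Spearman's rho between GC content and ratio was 0.74 over the 19 peaks and 0.44 over the 4081 conservative peaks with both values. With 200 bp to either side it was 0.63 and 0.39. All these points share the same 2 libraries, and neighbouring peaks share a locus. With the whole list divided by GC content into 4 parts of equal size, the median ratio from the lowest to the highest part was -0.26, -0.15, 0.08 and 0.44. Signal went with GC content as well: rho between them was -0.76 over the 19 peaks and -0.23 over the list. Signal and ratio had a rho of -0.55 over the 19 peaks and -0.03 over the list, so at the Polycomb group genes strong, AT-rich and replicate 2 leaning peaks are largely the same peaks and cannot be told apart. The part of base composition in the replicate differences was not tested.

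**Figure D4:**
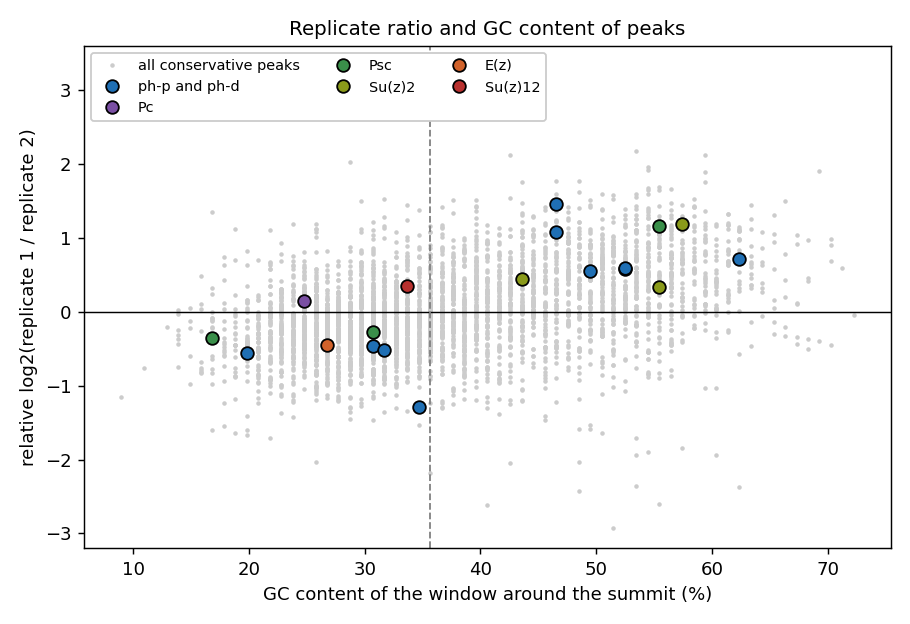
Replicate ratio against GC content. The x axis is the percentage of G and C within 50 bp to either side of the summit, the y axis the log2 ratio of replicate 1 to replicate 2 signal relative to the median of promoter peaks. Grey points are the 4081 conservative peaks with both values, coloured points the 19 peaks of the Polycomb group genes, and the dashed line marks the median GC content of 35.6%. All 10 coloured points to the right of the line lie above 0, and 7 of the 9 to its left lie below.

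Short DNA words, some of them of factors that bind Polycomb response elements, were looked for on either strand of the 50 bp to each side of a summit, where a match is only a match of letters. GAGAG (or CTCTC) was in 4 of the 19 windows (21.1%) and in 16.2% of all 4099 conservative windows. GCCAT (or ATGGC), the core word of Pho, was in 1 of 19 (5.26%), the ph-p peak at -1523 bp, and in 15.3% of all windows. GAAAA (or TTTTC), given for Dsp1, was in 7 of 19 (36.8%) and 46.0% of all, and CACACA (or TGTGTG) in 3 of 19 (15.8%) and 9.51% of all. TGAGTG (or CACTCA), the word of Zeste, was in none of the 19 and in 4.88% of all windows. The word ACAGTG (or CACTGT) was in none, beside 7.25% of all windows, and the same held for CAGGTG (or CACCTG), beside 2.44%. The palindrome CAGCTG was in none, beside 3.73%. TATCGATA, the DNA replication-related element and also a palindrome, was in none, beside 0.586%. A window counts once for a word however often it holds it, and matches of different words may share letters, as GAGAG and GAAAA can.

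A further 22 genes of the Polycomb system were read for context: accessory subunits, DNA-binding factors and the deubiquitinase genes. In the conservative list 2 of the 22 had a promoter peak and 12 a nearby one, to be set beside 13.8% and 39.9% of all protein-coding genes. The 2 were Trl, which encodes the GAGA factor, and psq, which encodes Pipsqueak, both binding GA repeats. Trl had promoter peaks of 235.9 at 122 bp (110.2 in replicate 1 and 123.4 in replicate 2) and of 103.7 at -186 bp (83.6 and 29.8). An intron peak of Trl was far stronger, with 1132 and rank 9, and 569.2 in replicate 1 and 574.4 in replicate 2. The psq promoter peak had 118.0 at -99 bp, with 59.2 in replicate 1 and 55.2 in replicate 2. Of the genes with a nearby peak only, which were picked after their values were seen, Caf1-55, a histone-binding partner of PRC2, had one of 939.9 at the TSSs of mRpS10 and Art3, and phol, the relative of pho, had one of 746.3 at the TSSs of CG3437 and CG3552. The pooled list added RYBP and Asx to the genes with a promoter peak.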

How the data were processed

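The authors deposited peak lists in narrowPeak layout for 2 libraries of 1 group, in dm6 coordinates per the deposited text files, made with 1 control alignment. The aligner, the peak caller and their versions are not given in the sources used here, and the control library was not analysed here. The signal of each peak and the -log10 of its global irreproducible discovery rate are the authors' deposited values, unscaled between libraries as far as stated. Replicates were named by the labels' biological replicate number. Peaks were placed on the Ensembl BDGP6.54 annotation (release 115) and the RefSeq Release 6 genome, all coordinates counted from 1, leaving out 1 conservative peak outside the 7 arms. Replicate signals of a conservative peak were looked up in each replicate's ranked list by the interval and summit given, which was possible for 4094 and 4086 of 4099 peaks; 2 further columns of replicate values in the ranked list were not used. No test was run, since 1 group gives no contrast. Named genes are the 10 members, genes with a TSS within 500 bp of a member's promoter summit or spanning a member's peak, and other Polycomb genes with a conservative promoter peak. Outside this rule, RYBP, Asx, Caf1-55 and phol, the genes at the peaks of the last pair, and CG7632 and lncRNA:CR44339 at flank peaks were named after their values were seen. The members and lists were chosen with earlier results of these data known. Scripts used Python 3.11.15 with pandas 2.3.3, numpy 2.4.6, matplotlib 3.10.9 and scipy 1.17.1, and were tested on simulated data. Alternatives were other TSS windows (200 and 1000 bp), the 5'-most TSS, interval overlap, the pooled list, each replicate alone, IDR limits of 0.001 and 0.05, putting back 113 ranked peaks that pass the IDR of the conservative list but are absent from it, flanks of 2 and 10 kb and wider word windows.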

Additional observations from a re-analysis of the deposited data

How the results depend on the processing

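Across the alternatives, 3 to 7 of the 10 genes had a promoter peak (6 as reported), 5 to 7 had one within 5 kb (7 as reported), and pho had none under any. The share of all protein-coding genes with a promoter peak moved too. It was 13.8% as reported, 8.10% with an IDR of at most 0.001, 9.58% with a TSS window of 200 bp and 19.8% with an IDR of at most 0.05. The share with a peak within 5 kb was taken for the deposited lists only, as given above. The PRC1 count of 4 became 2 with a TSS window of 200 bp, ph-p and ph-d being lost, and 2 with an IDR of at most 0.001. That IDR limit also left 3 of the 10 genes and 1 PRC2 gene, and 1 of the other Polycomb genes. The PRC2 count was 1 without replicate 1 and 2 without replicate 2, and that of the other Polycomb genes (2 as reported) was 1 and 2. The latter, out of 22 genes, became 1 with the 5'-most TSS alone, 4 in the pooled list and 6 with an IDR of at most 0.05. The shares of all protein-coding genes under these settings were 11.4%, 17.3% and 19.8%. In windows of 200 bp either side, GAGAG rose from 4 to 12 of the 19 windows (63.2%, beside 52.1% of all) and GCCAT from 1 to 5 (26.3%, beside 52.5%), wider windows holding more words by construction. The replicate ratio of ph-d changed from 0.71 to -1.27 with a TSS window of 1000 bp, because the strongest peak is then the one at -809 bp. GC content was also compared with 200 bp to either side, as an alternative chosen after seeing the data. No paired analysis was possible because the study has 1 group. Read depth is unknown and limits which weak peaks could be seen.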

Other observations

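While sequences around the summits were read, the word ACCCC (or GGGGT) was seen, and it was then counted. Of the printed sequences, only those of the ph-p and ph-d promoter peaks hold it. It was in 7 of the 19 windows of 50 bp to either side of the summit (36.8%): at the ph-d promoter, at the ph-p promoter peak at -470 bp, at the ph-p peaks at 1916, -1523 and -2336 bp, in the Psc intron peak and in the peak downstream of Su(z)2. Over all 4099 conservative windows it was in 526 (12.8%), in windows 1000 bp to either side of the summits in 9.05%, and in the 300 strongest peaks in 8.67%. The word was chosen on these windows, so the count has no test. The median replicate ratio was 0.36 over all windows with the word and -0.05 over those without it. The word consists mostly of G and C, so this is not separate from the comparison with GC content.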
